A study of Mus musculus with 24 samples.

Results

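Sertoli cells, the supporting cells of the fetal testis, switch on a series of genes in the days after sex determination, and 10 mouse genes picked for a strong rise or late peak in these cells are described here: Serpina5, Cst9, Myo7a, Mybpc3, Hcrtr1, Shisa8, Slc34a2, Miox, Jakmip2 and Etd. They are 10 of the 32040 gene symbols in the deposited tables, and all 10 were among the 16190 genes that passed the filter on low counts. The members were chosen from their measured values in these same libraries, across both sexes and all 4 stages. Their levels and differences are therefore given as a description, with no test.

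RNA was measured in bulk from sorted supporting cells of fetal gonads at 4 stages, from embryonic day E11.5 through E12.5 and on through E13.5 to E15.5. XX pre-granulosa cells, the supporting cells of the fetal ovary, carried the transgene Tg(Enh8-mCherry), and XY Sertoli cells carried SOX9-IRES-GFP, a green reporter placed behind Sox9. There were 3 libraries for each sex at each stage, which made 8 groups and 24 libraries, with no further allele or agent named. Sex, mouse line and fluorophore changed together and cannot be told apart, the XY cells were selected by a reporter of Sox9, and the labels name neither the cells that the Enh8 transgene marks nor the number of embryos pooled. Nothing in the labels says that replicates came from separate animals or sorts, so the p-values below measure only the spread between these samples, which may be technical.

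In the textbook account, the Y-linked gene Sry turns on Sox9 in the supporting cells of the XY gonad, which become Sertoli cells, enclose the germ cells in cords and direct the other cells of the testis. Without Sry the same lineage becomes pre-granulosa cells, which express Foxl2. The members are not 1 pathway. Serpina5 and Cst9 belong to families of protease inhibitors, Myo7a and Mybpc3 are known from the inner ear and the heart muscle, Hcrtr1 is a receptor, Shisa8 and Slc34a2 are membrane proteins, Miox is an enzyme, Jakmip2 is a coiled-coil protein, and Etd (embryonic testis differentiation) is a small X-linked gene.

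The promoters of members were read first, because the choice of members did not use sequence. Windows from 250 bases before to 50 after a listed start came from the RefSeq promoter table of build GRCm38.p6, with 32851 windows in all. Windows were read for 9 of the 10 members, without Jakmip2. For Serpina5, Mybpc3 and Shisa8 the listed start is the GENCODE gene start. Their RefSeq genes begin further upstream, at positions 104099313, 91118114 and 82212848. Both strands were searched for 4 kinds of string. The SOX strings were ACAAAG and, as its variant, ACAATG. The GATA strings were AGATAA and, as its variant, TGATAA. The string for NR5A1, a nuclear receptor of the gonad, was AAGGTCA, and the TATA box was searched as TATAAA. No match overlapped another in the windows printed here. A SOX match was present in 4 of the 9 members (Serpina5, Mybpc3, Etd and Cst9), against 28.6% of all windows. A GATA match was present in 4 of the 9 (Mybpc3, Miox, Etd and Cst9), against 18.6% of all windows. Shisa8 alone held the NR5A1 match (4.72% of all windows), and Miox and Etd held a TATA box (13.6% of all windows). Myo7a had 2 windows and Hcrtr1 had 3, and these counts use the first of each. A match is a string of letters and not a measured binding site.

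The 250 bases upstream of the start are printed for the 4 members with a SOX match. Each reads 5′ to 3′ on the gene's own strand, with matches to the SOX, GATA or TATA strings in capitals. They lie at chr12:104100863-104101112 on the plus strand for Serpina5, chr2:148834897-148835146 on the plus strand for Cst9, chr2:91117894-91118143 on the plus strand for Mybpc3, and chrX:53434668-53434917 on the plus strand for Etd.

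Serpina5: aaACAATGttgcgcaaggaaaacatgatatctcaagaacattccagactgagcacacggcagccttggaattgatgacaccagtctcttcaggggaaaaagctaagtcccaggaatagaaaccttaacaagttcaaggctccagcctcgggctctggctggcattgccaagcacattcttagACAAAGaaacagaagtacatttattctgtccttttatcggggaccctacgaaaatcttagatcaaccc

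Cst9: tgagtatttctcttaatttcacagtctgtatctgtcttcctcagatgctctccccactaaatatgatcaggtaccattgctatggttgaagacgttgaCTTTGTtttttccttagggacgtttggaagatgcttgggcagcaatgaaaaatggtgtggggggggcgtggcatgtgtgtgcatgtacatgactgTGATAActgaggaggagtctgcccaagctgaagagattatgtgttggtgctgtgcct

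Mybpc3: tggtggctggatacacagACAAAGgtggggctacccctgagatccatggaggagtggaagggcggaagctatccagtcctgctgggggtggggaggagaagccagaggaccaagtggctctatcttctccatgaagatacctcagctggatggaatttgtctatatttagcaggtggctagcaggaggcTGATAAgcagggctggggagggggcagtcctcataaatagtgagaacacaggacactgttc

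Etd: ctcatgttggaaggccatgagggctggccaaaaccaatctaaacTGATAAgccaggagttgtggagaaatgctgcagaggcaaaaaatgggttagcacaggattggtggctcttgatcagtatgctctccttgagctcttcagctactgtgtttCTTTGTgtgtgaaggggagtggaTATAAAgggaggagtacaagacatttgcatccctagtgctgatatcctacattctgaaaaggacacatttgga

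Counted from the start, the SOX matches began at -248 and -68 in Serpina5, at -152 in Cst9, at -232 in Mybpc3 and at -96 in Etd. Cst9 held another SOX match at 35 bases after the start, outside the stretch printed. GATA matches began at -57 in Cst9, at -61 in Mybpc3 and at -206 in Etd. The windows differed in composition: Etd held 0 CpG dinucleotides and Mybpc3 held 1, whereas the windows of Shisa8 and Slc34a2 held 32 and 30. GC content was 46.0% in Etd and in Cst9 and 71.3% in Shisa8, beside a median of 52.7% over all windows.

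Total counts per library ranged from 11275251 to 37256881, and levels are given as CPM, the counts divided by the TMM-scaled library size and put on a common scale. A count of 3 in a single library, the floor used here, was worth 0.0774 to 0.260 CPM, and floors and intervals cover counting error only. Sox9 and Amh were high in every XY library from E12.5. The summed level of 10 Sertoli markers ran from 9047 to 11355 CPM there and from 3095 to 5104 CPM in XY E11.5. In the XX libraries it ran from 621 to 1973 CPM. Of the 10, Wt1, Gata4 and Nr5a1 had means of 609, 651 and 219 CPM at XX E11.5. Pre-granulosa markers (8 genes) summed to 522 to 1585 CPM in XX and 29.7 to 245 CPM in XY. Amh, the hormone that removes the female ducts, stood at 23.4, 39.5 and 16 CPM in the XY E11.5 libraries, against 3826, 3859 and 3838 CPM at E12.5.

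The XX E11.5 libraries stood apart in several ways. Erythroid markers (6 genes) summed to 4360 to 31422 CPM there and to 12.8 to 30.4 CPM in XY E11.5, immune markers (6 genes) to 129 to 354 and 0.299 to 1.91 CPM, and interstitial markers (5 genes) to 273 to 2079 and 570 to 964 CPM. Foxl2 stood at 2.62, 35.2 and 4.73 CPM in XX E11.5 replicates 1, 2 and 3, so that replicate 2 was at the level of XX E12.5 (20.2 to 35.5 CPM). Sox9 stood at 226, 78.6 and 74.5 CPM in the same libraries, highest in replicate 1. One library, XX E13.5 replicate 1, is called E13.5 in its title and E12.5 in its stage field. It was kept at E13.5, as in its title. Gata4, which is not a member, ran from 146 to 200 CPM over the XX E13.5 libraries, this one included. Over the XX E12.5 libraries it ran from 538 to 743 CPM.

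**Figure D1:**
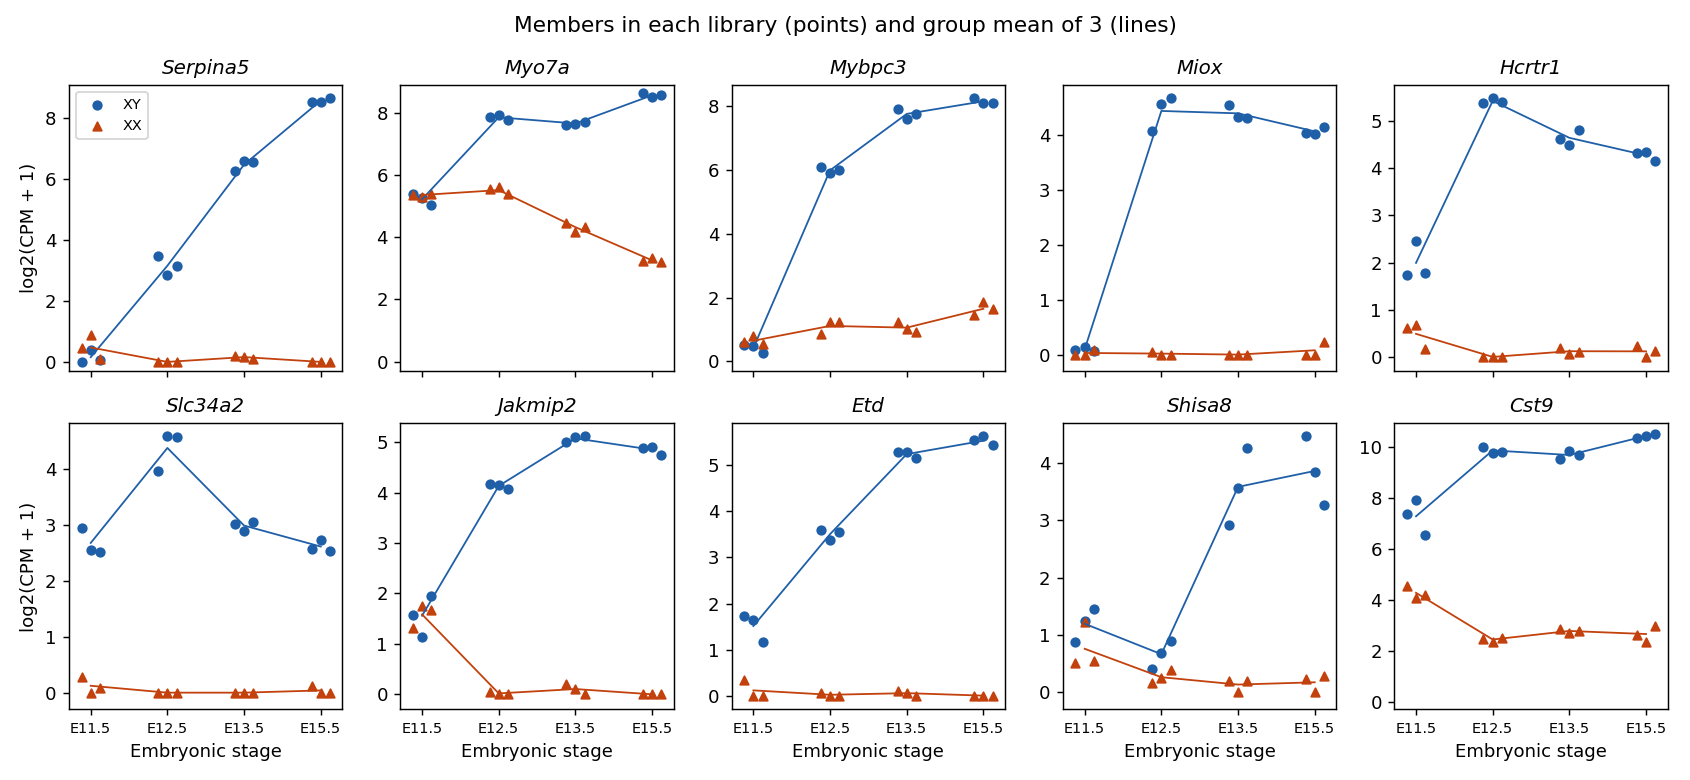
Level of each member in each of the 24 libraries, as log2(CPM + 1) on the vertical axis against embryonic stage, with XY libraries as circles, XX libraries as triangles and lines through the means of 3. From E12.5 on, the circles lie above the triangles in all 10 panels, and the XY lines of Hcrtr1, Slc34a2 and Miox are highest at E12.5.

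Across the members, 9 of 10 were higher in every XY E12.5 library than in every XY E11.5 library, where 32.4% of all genes tested had that arrangement, and Shisa8 was the exception. The same count held for E15.5 over E11.5, at 9 of 10 beside 36.4% of all genes, with Slc34a2 as the exception. Between the sexes, 4 of 10 were above XX in every library at E11.5 (20.3% of all genes), and 10 of 10 were so at each later stage, beside 35.5% of all genes at E12.5, then 38.6% at E13.5 and last 38.1% at E15.5. The 4 at E11.5 were Hcrtr1, Slc34a2, Etd and Cst9. The choice of members used these contrasts, so nothing is read from these counts.

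The later steps divided the members. From E12.5 to E13.5, 5 members moved up without overlap (19.9% of all genes) and 3 moved down (22.3%), and from E13.5 to E15.5 the numbers were 5 up (25.7%) and 4 down (23.9%). As a result 6 members had their highest XY mean at E15.5 (Serpina5, Myo7a, Mybpc3, Etd, Shisa8 and Cst9), 1 at E13.5 (Jakmip2) and 3 at E12.5 (Miox, Hcrtr1 and Slc34a2). A description as late genes suits the first 6 only by the stage of the highest mean. Myo7a and Cst9 were already at 61.2% and 67.5% of that mean at E12.5. For Shisa8 the stage moved to E13.5 without XY E13.5 replicate 1 or without XY E15.5 replicate 1. Jakmip2 at E15.5 was at 85.1% of its E13.5 mean, while Slc34a2 at E15.5 was back near its E11.5 level. In bulk samples, fewer cells of a type and less RNA per cell cannot be told apart.

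**Figure D2:**
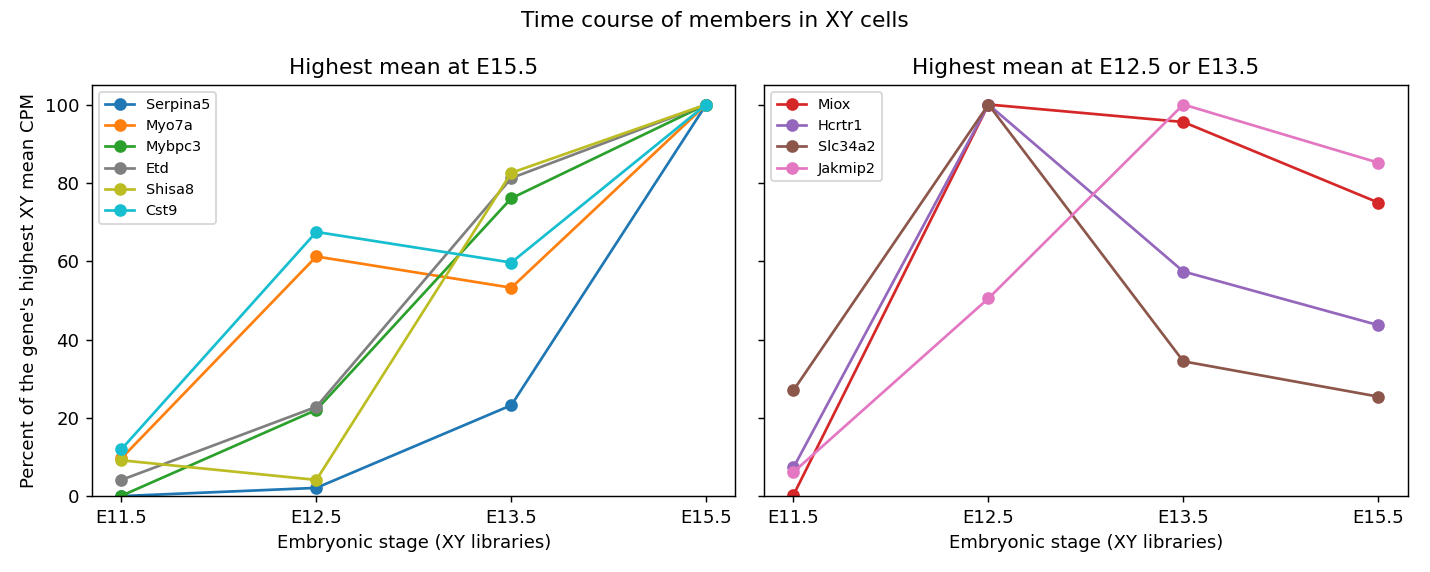
Mean CPM of each member in XY libraries as a percent of that gene's highest XY mean, by stage, with members whose highest mean was at E15.5 on the left and the others on the right. Serpina5 stays at 23.2% of its E15.5 level as late as E13.5, while Slc34a2 at E15.5 is at 25.4% of its E12.5 level.

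Serpina5 encodes protein C inhibitor, a serpin that blocks several serine proteases and whose loss makes male mice infertile. It had the widest range of the members. It stood at 0, 0.31 and 0.0522 CPM in the 3 XY E11.5 libraries (0, 12 and 2 counts), then at 10.1, 6.12 and 7.86 CPM at E12.5, then 75.7, 93.6 and 93 CPM at E13.5 and 364, 367 and 398 CPM at E15.5. No library of a later stage overlapped an earlier one, and the means were 66.5-fold, 10.9-fold and 4.3-fold higher at the successive steps. The 14 counts at E11.5, 12 of them in replicate 2, make every ratio to that stage uncertain: without that library the log2 difference of E15.5 minus E11.5 in the edgeR fit was 13.45 in place of 11.52. In XX cells it held 26 counts at E11.5 (0.0648 to 0.825 CPM), 6 at E13.5 and 0 at E12.5 and E15.5. At E15.5 the XY mean was at least 6145-fold higher than XX, taking the floor of 3 counts over the XX group. At E11.5 the sexes overlapped. On the genome it spans chr12:104101113-104106137 (plus strand).

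Cst9, also known as testatin, is a relative of the cystatins, inhibitors of cysteine proteases, and was the most abundant member. Its XY libraries stood at 162, 242 and 93.2 CPM at E11.5, 1024, 874 and 899 CPM at E12.5, then 729, 920.3 and 825 CPM at E13.5 and 1299, 1382 and 1465 CPM at E15.5. The E12.5 and E13.5 libraries overlapped, and those of E15.5 were above all others, 8.34-fold over E11.5 on the means. The E11.5 libraries varied most, with replicate 2 highest, and Sox9 (1783, 2127 and 1208 CPM in the 3 replicates) and Amh had their highest E11.5 values in the same replicate. Unlike Serpina5, Cst9 was already 8.94-fold higher than in XX at E11.5. In XX cells its level was 22.3, 15.9 and 17.4 CPM at E11.5 and between 4.13 and 6.90 CPM in all later libraries. Per length, in the deposited TPM (transcript abundance scaled by length and by library), it was the highest member at XY E15.5, at 3302 ± 158 TPM (SD, n = 3), and Slc34a2 was the lowest, at 1.93 ± 0.105 TPM. It is encoded at chr2:148835147-148838738 (plus strand).

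Myo7a encodes an unconventional myosin of the stereocilia of the inner ear, and its mutations cause deafness. At E11.5 it stood at 40.8, 36.8 and 31.4 CPM in XY and 40.3, 38.5 and 40.9 CPM in XX, and these libraries overlapped. In XY it then stood at 229.7, 243 and 217 CPM at E12.5, then 195, 196 and 209 CPM at E13.5 and 392, 360.2 and 375 CPM at E15.5, with a lower level at E13.5 than at E12.5 in every library. In XX it was lower at each step after E12.5. It ranged over 40.9 to 47.4 CPM at E12.5, 17.1 to 21.1 CPM at E13.5 and 8.15 to 9 CPM at E15.5. The sexes moved in opposite directions only from E13.5 to E15.5. The sexes were thus 5.14-fold apart at E12.5 and 43.9-fold apart at E15.5. Its locus is chr7:98051060-98119524 (minus strand).

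Mybpc3 encodes cardiac myosin-binding protein C, a sarcomere protein whose mutations cause hypertrophic cardiomyopathy. Its XY libraries held 16, 15 and 8 counts at E11.5, or 0.435, 0.387 and 0.209 CPM. They reached 66.5, 58.6 and 62.5 CPM at E12.5, then 237, 194 and 217 CPM at E13.5 and 306, 273 and 272 CPM at E15.5, each stage above the one before without overlap. At E11.5 every XX library (0.454 to 0.734 CPM) was above every XY library, the only member so arranged (19.7% of all genes tested), though both were under 1 CPM. It was also the only member with a higher level in every XX E15.5 library than in every XX E11.5 library (26.8% of all genes), at 1.74, 2.67 and 2.09 CPM, and it remained 131-fold higher in XY at that stage. The annotated gene spans chr2:91118144-91136516 (plus strand).

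Hcrtr1 encodes orexin receptor 1, a G protein-coupled receptor best known from the control of wakefulness. Its XY libraries stood at 2.34, 4.49 and 2.45 CPM at E11.5, 41, 44.1 and 41.3 CPM at E12.5, then 23.7, 21.6 and 27.2 CPM at E13.5 and 19.2, 19.3 and 16.8 CPM at E15.5. The level was thus highest at E12.5 and lower at each later stage without overlap, ending at 5.95-fold its E11.5 mean. At E11.5 it was 7.37-fold higher than in XX, where 25 counts were found over 3 libraries. At E12.5 no XX count was found, and the XY mean was at least 989.9-fold higher. Its locus is chr4:130130217-130139359 (minus strand).

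Slc34a2 encodes NaPi-IIb, a sodium-dependent phosphate cotransporter of lung and intestine. Its XY libraries stood at 6.74, 4.88 and 4.75 CPM at E11.5, 14.6, 23 and 22.8 CPM at E12.5, then 7.13, 6.38 and 7.33 CPM at E13.5 and 4.9, 5.67 and 4.81 CPM at E15.5. Only E12.5 stood out, and the E15.5 libraries overlapped those of E11.5. The XX libraries held 6 counts in all, of which 4 were in E11.5 replicate 1, the XX library with the highest Sox9 (226 CPM) and Amh (7.86 CPM); the part of that library in the values was not tested. The E11.5 difference between the sexes was 58.7-fold (counting interval 26.2 to 188). The gene lies at chr5:53038081-53071664 (plus strand), and a predicted antisense gene, Gm17182, overlaps its body with 0 shared exon bases.

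Shisa8 belongs to a family of small membrane proteins, some of which modulate AMPA receptors, the fast glutamate receptors of the brain. It was the latest to appear and the least reproducible member. Its XY libraries held 0.842, 1.37 and 1.75 CPM at E11.5 and 0.327, 0.604 and 0.868 CPM at E12.5, so that the second stage was not above the first. They then stood at 6.52, 10.9 and 18.2 CPM at E13.5 (118, 273 and 510 counts) and 21.1, 13.4 and 8.61 CPM at E15.5 (487, 239 and 136 counts). The last pair of stages overlapped, and the SD was 49.8% and 43.9% of the mean, where the other 9 members were at 3.75% to 11.9% at those stages. The E15.5 mean exceeded the E13.5 mean by only 1.21-fold, and without XY E13.5 replicate 1 or without XY E15.5 replicate 1 the highest mean moved to E13.5. XX libraries stayed under 0.31 CPM from E12.5, and XX E11.5 was at 0.428, 1.33 and 0.454 CPM. It is encoded at chr15:82206168-82212815 (minus strand).

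Miox encodes myo-inositol oxygenase, which opens the inositol ring to make glucuronate, a reaction known mainly from the kidney. Its XY libraries held 2, 4 and 2 counts at E11.5, equal to 0.0543, 0.103 and 0.0522 CPM. They stood at 15.9, 22.8 and 24.7 CPM at E12.5, then 22.4, 19.2 and 18.9 CPM at E13.5 and 15.4, 15.3 and 16.8 CPM at E15.5. The E12.5 and E13.5 libraries overlapped, and without XY E12.5 replicate 3 the highest mean moved to E13.5. The E12.5 level over E11.5 was 302-fold (counting interval 153 to 696). All 12 XX libraries together held 6 counts, of which 4 were in E15.5 replicate 3. On the genome it spans chr15:89334398-89337015 (plus strand).

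Jakmip2 encodes a coiled-coil protein of the Janus kinase and microtubule interacting family. Its XY libraries stood at 1.98, 1.21 and 2.87 CPM at E11.5, 17, 16.8 and 15.9 CPM at E12.5, then 31.2, 33.4 and 33.8 CPM at E13.5 and 28.7, 29.1 and 25.9 CPM at E15.5, with every E15.5 library under every E13.5 library. At E11.5 the XX libraries were at the same mean, 1.5, 2.38 and 2.2 CPM. They then held 1 count at E12.5, 4 counts at E13.5 and none (0) at the last stage, so the sexes parted in both directions at once. Its transcripts carry a stretch of up to 455 aligned bases that 284 other genes share at 90% identity or more, of 10743 exon bases, and reads there could be divided between genes; the other 9 members had no such match of 200 bases or more.

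Etd is a small gene with 478 exon bases in 2 exon blocks at chrX:53434918-53443576 (plus strand). Its XY libraries stood at 2.31, 2.14 and 1.23 CPM at E11.5, 11, 9.45 and 10.7 CPM at E12.5, then 38.3, 37.9 and 34.7 CPM at E13.5 and 45.7, 48.6 and 42.2 CPM at E15.5, and no stage overlapped the next. The means were 24-fold apart between the first stage and the last. XX cells held 8 counts in all, of which 5 were in E11.5 replicate 1, again the library with the highest Sox9 among XX. At E15.5 XX held 0 counts and the XY mean was at least 743-fold higher. Among the XX E11.5 libraries, Cst9 was also highest by CPM in replicate 1. Serpina5, Mybpc3, Hcrtr1, Jakmip2 and Shisa8 were highest in replicate 2, and Myo7a and Miox in replicate 3. The part of these libraries in the values was not tested.

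In XX cells, 5 members were lower in every E15.5 library than in every E11.5 library (27.5% of all genes tested): Serpina5, Myo7a, Jakmip2, Shisa8 and Cst9. For 4 of these the level was already lower at E12.5, and Myo7a moved after it. In Serpina5 the arrangement rests on 1 count in XX E11.5 replicate 3, at 0.0648 CPM under the floor of 0.194 CPM. Shisa8 held 8, 29 and 7 counts at XX E11.5 and 2, 0 and 5 at XX E15.5. The XX E11.5 libraries were also those with the most erythroid, immune and, in replicate 3, interstitial RNA, and the part of these in the values was not tested. Interstitial markers fell within XY too, from 570 to 964 CPM at E11.5 to 21.3 to 25.2 CPM at E12.5, beside the first step of the members, and steroidogenic markers (5 genes) from 265 to 337 CPM to 58.9 to 81.3 CPM. Beside the later step in XY, erythroid markers went from 41.2 to 60.5 CPM at E13.5 to 164 to 248 CPM at E15.5, germ cell markers (8 genes) from 8.86 to 13.7 to 37.7 to 65.5 CPM and interstitial markers from 10.6 to 13.7 to 81.5 to 108 CPM. The part of these in the values was not tested either.

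The members resembled each other unequally. Over all 24 libraries, Pearson correlations of log2(CPM + 1) between the 45 pairs ran from 0.519 to 0.967 with a median of 0.892, and the sex difference they were chosen for is shared by all pairs. Over the 12 XY libraries alone the range was -0.58 to 0.985, with a median of 0.843. The highest XY pair was Mybpc3 with Jakmip2, followed by Myo7a with Cst9 (0.977). The lowest was Slc34a2 with Shisa8, followed by Slc34a2 with Serpina5 (-0.23).

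The genes most like each member over the 24 libraries were taken from 11149 candidates. For Serpina5 they were Bcan (r = 0.992), Fshr (r = 0.991) and Defb36 (r = 0.989). Fshr, the receptor for follicle-stimulating hormone and a Sertoli gene, stood at 0.0543, 0.0258 and 0.0783 CPM at XY E11.5 and 42, 41.4 and 44.7 CPM at XY E15.5. For Mybpc3 they were Hsd17b1 (r = 0.991), Slc13a2 (r = 0.991) and Defb19 (r = 0.990), and for Jakmip2 Hsd17b3 (r = 0.986), Tox (r = 0.980) and Tmcc3 (r = 0.980). Hsd17b1 and Hsd17b3, enzymes that reduce the keto group of weak sex steroids, reached 242 ± 8.51 and 500.3 ± 17.4 CPM at XY E15.5 (SD, n = 3).

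For Myo7a they were Lfng (r = 0.986), Zyx (r = 0.983) and Cx3cl1 (r = 0.982), for Etd P2rx2 (r = 0.991), Flvcr2 (r = 0.986) and Chmp4c (r = 0.986), and for Miox C1ql2 (r = 0.992), Vnn1 (r = 0.987) and Eps15 (r = 0.986). For Hcrtr1 they were Col9a3 (r = 0.990), Mapk4 (r = 0.988) and Cltb (r = 0.988). Col9a3, a chain of collagen IX, was likewise highest at XY E12.5, at 1859.7 ± 103 CPM against 775 ± 32.9 CPM at E15.5. For Slc34a2 they were Acap1 (r = 0.986), Cdc42se2 (r = 0.986) and Col27a1 (r = 0.981). For Cst9 they were Serpine2 (r = 0.992), P2ry2 (r = 0.991) and AU015836 (r = 0.989). Shisa8 had the least close set, Foxq1 (r = 0.972), 4930486L24Rik (r = 0.941) and Fam3c (r = 0.941).

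Foxq1, a forkhead transcription factor, was likewise higher in every XY E13.5 and E15.5 library than in every XY E12.5 library. It stood at 0.794, 1.64 and 2.38 CPM at XY E12.5, then 9.29, 12.4 and 17.5 CPM at E13.5 and 28.7, 21.9 and 23.4 CPM at E15.5. At E13.5 Shisa8 and Foxq1 had their lowest value in replicate 1 and their highest in replicate 3. At E15.5 both were highest in replicate 1, while Shisa8 was lowest in replicate 3 and Foxq1 in replicate 2. Foxq1 was picked for its likeness over these same libraries, so nothing is read from the shared order.

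**Figure D3:**
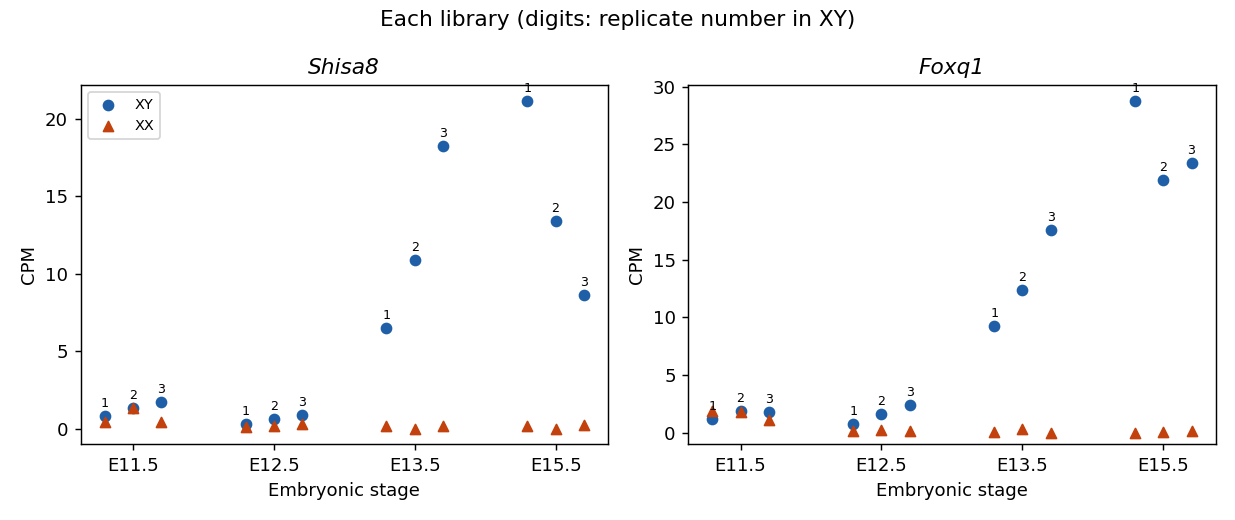
CPM of Shisa8 (left) and Foxq1 (right) in each library by stage, with XY libraries as circles numbered by replicate and XX libraries as triangles. Shisa8 in XY runs from 6.52 to 18.2 CPM at E13.5 and from 8.61 to 21.1 CPM at E15.5.

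Genes that work with or are related to the members were listed by function and tested. The lists were made with earlier results of these data known, so their choice was not blind to these libraries. Of 127 listed, 126 were found and 100 passed the filter. In XY cells, 79 of the 100 changed between E11.5 and E15.5 (edgeR's quasi-likelihood test, adjusted p under 0.05), 37 up and 42 down, where 57.7% of all 16190 genes changed (30.2% up and 27.5% down). Between the same stages in XX, 72 changed, 32 up and 40 down, where 59.4% of all genes did (28.3% up and 31.1% down). XY differed from XX for 48 at E11.5, 23 higher and 25 lower (42.0% of all genes, 20.6% higher and 21.4% lower). At E15.5 it differed for 74, 40 higher and 34 lower (69.4% of all genes, 34.4% higher and 34.9% lower). The change itself differed between the sexes for 62, which were 34 higher and 28 lower in XY, beside 52.8% of all genes (27.0% higher and 25.8% lower). The median log2 change of the 100 in XY was -0.08, against 0.03 over all genes. Without XX E11.5 replicate 2, 80 changed in XX and 55 differed between the sexes at E11.5. These shares of all genes are the background for each list below. The change differed for 36.4% of proteases and serpins, 46.2% of the Shisa list, 53.8% of sarcomere and 57.1% of phosphate genes. It differed for 64.3% of the cystatin and myosin lists, 66.7% of inositol, 85.7% of Jakmip and 100% of orexin genes, beside 52.8% of all genes.

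**Figure D4:**
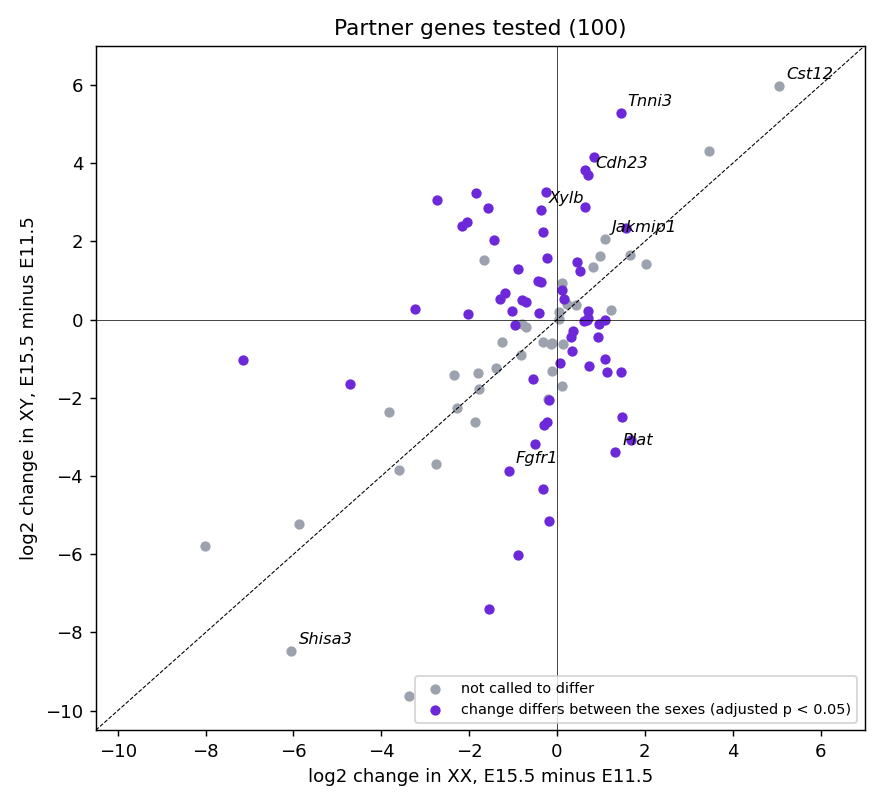
log2 change from E11.5 to E15.5 in XX (horizontal) and XY (vertical) for the 100 partner genes tested, with those whose change differed between the sexes in purple and 1 gene named in each of 8 lists, the one of largest XY change among genes called and with at least 10 CPM in some group. Points above the dashed line changed more upward in XY. Cdh23, Xylb and Tnni3 lie above it and Plat and Fgfr1 below it.

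Proteases and serpins related to Serpina5 mostly fell in XY, with 1 up and 10 down of 11. In XX, 2 rose and 7 fell of the same 11. The change differed between the sexes for 4 (36.4%, beside 52.8% of all genes), 2 higher and 2 lower in XY. Plat, tissue plasminogen activator, a protease that serpins inhibit, stood at 996, 1285 and 951 CPM in XY at E11.5 and at 101, 104 and 102 CPM at E15.5, with no overlap (log2 change -3.40 ± 0.20 (SE), adjusted p = 7.37e-12). In XX it rose, from a range of 53.1 to 110.1 CPM to one of 210.1 to 238 CPM (log2 change 1.32 ± 0.19 (SE), adjusted p = 4.46e-06), and the changes differed (-4.72 ± 0.27 (SE), adjusted p = 1.69e-11). The one that rose in XY was Serpine2, protease nexin, at 395, 378 and 288 CPM at E11.5 and 2549, 2541 and 2592 CPM at E15.5, which is also the gene most like Cst9 and is named for that. Interstitial markers moved down in XY over the same interval (570 to 964 CPM, then 81.5 to 108 CPM), and their part was not tested.

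Cystatins and cathepsins, proteases of which many are inhibited by cystatins, rose in XY for 10 of 14 and fell for none of those tested. In XX, 9 rose and 4 fell of the same 14, and the change differed between the sexes for 9, 7 higher and 2 lower in XY. Cst12, another cystatin, stood at 1.28, 0.878 and 0.992 CPM in XY E11.5 and 67.6, 64.2 and 67 CPM in XY E15.5 (log2 change 5.98 ± 0.48 (SE), adjusted p = 1.48e-09). It rose in XX as well, from 2.03, 9.95 and 1.1 to 159.7, 133 and 160.0 CPM, and was higher in XX than in XY at both stages (log2 difference -2.11 and -1.19). Its change was not shown to differ between the sexes (log2 0.93 ± 0.60 (SE), adjusted p = 0.202), and XX E11.5 replicate 2 held its highest E11.5 value. Without that library the difference between the changes was -0.56, without XX E11.5 replicate 3 it was 1.35 and called (edgeR adjusted p = 0.0233), and without replicate 2 the E11.5 difference between the sexes was no longer called (log2 -0.60, edgeR adjusted p = 0.108).

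Among partners of Myo7a and other unconventional myosins, 6 rose and 4 fell of 14 in XY. In XX, 2 rose and 6 fell of the same 14, and the change differed between the sexes for 9, 7 higher and 2 lower in XY. Cdh23, the tip-link cadherin that works with Myo7a in hair cells, stood at 11.1, 14.1 and 7.62 CPM at XY E11.5 and 146, 135 and 101 CPM at E12.5, and remained at 131 to 149 CPM at E15.5 (log2 change 3.71 ± 0.20 (SE), adjusted p = 1.75e-12). In XX it rose less, from a range of 12.6 to 17.1 CPM to one of 17.5 to 26.5 CPM, and the changes differed (log2 3.01 ± 0.27 (SE), adjusted p = 8.47e-09). The 2 genes did not run together in XX, where Myo7a was lower at E15.5.

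Sarcomere genes, listed beside Mybpc3, rose for 5 and fell for 7 of 13 in XY. In XX, 4 rose and 6 fell of the same 13. The change differed between the sexes for 7 (53.8%, beside 52.8% of all genes), 4 higher and 3 lower in XY. Tnni3, cardiac troponin I, stood at 4.43, 4.31 and 4.28 CPM at XY E11.5 and 170.0, 159.9 and 176 CPM at E15.5 (log2 change 5.28 ± 0.30 (SE), adjusted p = 6e-12), and its rise exceeded that in XX (log2 3.83 ± 0.38 (SE), adjusted p = 4.61e-08). The muscle actins Acta1 and Actc1 fell in XY, Acta1 from 35 counts over the 3 E11.5 libraries to 0 and Actc1 from 3.82 to 10.9 CPM to a range of 0.0633 to 0.337 CPM. The list as a whole did not move with Mybpc3.

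Inositol and glucuronate genes, listed beside Miox, rose for 7 and fell for 3 of 12 in XY. In XX, 6 rose and 2 fell of the same 12, and the change differed between the sexes for 8, 3 higher and 5 lower in XY. Xylb, xylulokinase, which acts at the end of the glucuronate route, stood at 7.66, 7.25 and 5.72 CPM at XY E11.5 and 48.6, 49.6 and 46.1 CPM at E15.5 (log2 change 2.80 ± 0.17 (SE), adjusted p = 1.14e-11). In XX it was at 10.4, 8.62 and 6.74 and then 5.47, 8.33 and 6.24 CPM, and the changes differed (log2 3.17 ± 0.24 (SE), adjusted p = 8.69e-10).

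In the orexin list, 3 rose and 5 fell of 9 in XY. In XX, 2 rose and 4 fell of the same 9, and the change differed between the sexes for 9, 4 higher and 5 lower in XY. Hcrt, which encodes the orexin peptides, did not pass the filter on low counts, and Hcrtr2, the other orexin receptor, fell by 1.66 on the log2 scale.

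In the phosphate list, 0 rose and 3 fell of 7 in XY. In XX, 1 rose and 4 fell of the same 7, and the change differed between the sexes for 4, 2 higher and 2 lower in XY. The other SLC34 transporters Slc34a1 and Slc34a3 did not pass the filter. Fgfr1, a receptor for fibroblast growth factors, stood at 27, 57 and 71 CPM at XY E11.5 and 4.04, 3.99 and 2.53 CPM at E15.5 (log2 change -3.86 ± 0.35 (SE), adjusted p = 9.6e-09), a larger fall than in XX (log2 -2.76 ± 0.45 (SE), adjusted p = 3.57e-05). Its order over the XY E11.5 replicates, lowest in 1 and highest in 3, was that of the interstitial markers (570, 764 and 964 CPM), whose part was not tested.

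In the Jakmip list, 4 rose and 1 fell of 7 in XY. In XX, 3 rose and 4 fell of the same 7, and the change differed between the sexes for 6, 5 higher and 1 lower in XY. The paralog Jakmip1 rose in XY (log2 change 2.06 ± 0.56 (SE), adjusted p = 0.00375) but from 0.19, 0.361 and 0.574 to only 0.998, 2.13 and 1.71 CPM, and was higher in XX at E15.5, at 9.2, 10 and 9.58 CPM. This is the opposite sex bias to Jakmip2 at that stage. Its change was not shown to differ between the sexes (log2 0.97 ± 0.71 (SE), adjusted p = 0.261).

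In the Shisa and AMPA receptor list, 1 rose and 9 fell of 13 in XY. In XX, 3 rose and 3 fell of the same 13, and the change differed between the sexes for 6, 0 higher and 6 lower in XY. Among its genes with at least 10 CPM in some group, Shisa3 fell the most, from 44.7, 63.8 and 101 CPM at E11.5 to 0.434, 0 and 0.0633 CPM at E15.5 (log2 change -8.48 ± 0.84 (SE), adjusted p = 3.73e-08). It fell in XX too, from 7.22, 3.62 and 35.5 to 0.347, 0.133 and 0.223 CPM, highest in XX E11.5 replicate 3, the library with the most interstitial RNA (2079 CPM). The changes were not shown to differ (log2 -2.43 ± 1.62 (SE), adjusted p = 0.219), and the part of interstitial RNA was not tested. The AMPA receptor subunits Gria1, Gria2, Gria3 and Gria4 all fell in XY, with log2 changes of -5.15, -3.08 and -4.33 for Gria1, Gria3 and Gria4. Gria2 held 507 counts over the XY E11.5 libraries and 0 at E15.5. Shisa8 itself was higher at E15.5.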

How the data were processed

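The deposited estimated counts and TPM values per gene were made by the authors, on build mm10 per the submitters' processing notes; the aligner, the counter and the use of strand are not given in the sources used here. RNA came from about 40000 sorted cells per library and was amplified as cDNA, with no molecular identifiers described, per the labels' protocols. Estimated counts (17.5% not whole) were rounded. The genes listed made up 0.939 to 0.962 of a full TPM total in each library.

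Low genes were removed with filterByExpr, libraries scaled by TMM and fitted with edgeR 4.0.16 (R 4.3.3), robust quasi-likelihood, 1 mean per group, 16 residual degrees of freedom. P-values were Benjamini-Hochberg adjusted over 16190 genes and called under 0.05. On simulated counts for these 16190 genes (XY E15.5 minus XY E11.5), 69% of 100 genes changed by log2 1 and 96% of 100 changed by log2 2 were recovered. All other genes were simulated without change, whereas 57.7% of genes were called in the data, so recovery there may differ. The share of false calls is not given here. Ratios use group mean CPM. Against a group at 0, the floor was 3 counts over that group. Where the lower group held 1 to 10 counts, an exact 95% counting interval is given.

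The members and the gene lists were chosen with earlier results of these data known. All members are named, with the 3 genes most alike per member and in each list the partner with the largest XY change among those called, both among genes with at least 10 CPM in some group; 1 such result is not reported here. Serpine2 as a partner, Acta1, Actc1, Hcrt, Hcrtr2, Slc34a1, Slc34a3 and the Gria genes were named after their values were seen. Transcripts and exons came from GENCODE M21 (GRCm38), searched for near copies with BLAST 2.17.0. The alternatives were DESeq2 size factors, 2 other count filters, the replicate block, DESeq2 1.42.0, limma 3.58.1 on log2(TPM + 1) or log2(TPM + 0.1), a fit of the compared libraries alone, and each library left out in turn. Libraries within a group differed by more than counting noise (chi-square per degree of freedom 3.83 to 114), so none was counted as a copy of another. One listed partner, Myo15, was not matched.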

Additional observations from a re-analysis of the deposited data

Results flagged for a closer look

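For 5 named partner genes the change from E11.5 to E15.5 differed between the sexes by edgeR's interaction test. The difference of XY change minus XX change was 3.01 (log2) for Cdh23, 3.83 for Tnni3 and 3.17 for Xylb. It was -4.72 for Plat and -2.76 for Fgfr1. Adjusted p ran from 1.69e-11 (Plat) to 3.57e-05 (Fgfr1).

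For 5 members every XY library was higher at E15.5 than at E11.5 while every XX library was lower. Of all genes tested, 36.4% had the first arrangement and 27.5% the second, and the share with both was not counted. The XX arrangement of Serpina5 rests on 1 count in XX E11.5 replicate 3. The XY means were higher by 3120.0-fold for Serpina5, 10.3-fold for Myo7a, 13.8-fold for Jakmip2, 10.9-fold for Shisa8 and 8.34-fold for Cst9. The value for Serpina5 rests on 14 counts at XY E11.5, of which 12 were in replicate 2, and the log2 difference went from 11.52 to 13.45 without that library. The difference between the sexes was not tested for these genes, since they were chosen for it.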

How the results depend on the processing

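The counts of partner genes called stayed within 1.5 times of the main value in all but 3 cases. Of the 79 in the XY change, 45 were called when at least 10 counts were required in every library, where 65 were tested. Fitting only the libraries compared left 45 of 72 in the XX change and 24 of 48 in the XY minus XX difference at E11.5, and the cause was not tested. Leaving out single libraries gave 67 to 73 for the XY change, 64 to 80 for the XX change, 45 to 55 and 71 to 74 for the sex difference at E11.5 and E15.5, and 58 to 67 for the difference between the changes. The number of members with the highest XY mean at E15.5 was 5 to 6. Of the 30 most alike genes, 18 were shared when log2(TPM + 1) was used and 16 with 8 group means.

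Directions turned for few of the values counted. In XX, Miox ran from -2.07 (log2, without XX E15.5 replicate 3, which held 4 of its 6 XX counts) to 3.92 without single libraries. Shisa3 at E15.5, XY minus XX, ran from -2.68 to 0.22 without single libraries. For the difference between the changes, Jakmip1 was at -0.40 under both log2(TPM + 1) fits and from -0.37 (without XX E11.5 replicate 2) to 1.37 without single libraries, and Cst12 from -0.56 (without the same library) to 1.35 (called, without XX E11.5 replicate 3). None of these partner values was called in the main test. Of 637 alternative values for the 8 named partners, 602 kept direction and call, 13 lost a call and 15 gained one. Of 560 alternative log2 differences of the members, 103 moved by more than the spread between replicates. Of the differences whose main value exceeded that spread, 1 turned direction. Changes of sign in smaller differences were not counted. Of the 103, 79 were among the 120 from limma on log2(TPM + a pseudocount).

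The labels do not say whether equal replicate numbers pair the samples, which were treated as unpaired. For XY minus XX at E11.5, deviations of same-numbered libraries correlated at 0.11, 0.0871 and 0.298. Those of differently numbered libraries ran from -0.27 to 0.138 there. In the other comparisons same-numbered libraries ran from -0.11 to 0.0556, and differently numbered ones from -0.124 to 0.146. With the replicate block, 78, 73, 48, 74 and 64 partner genes were called in the 5 comparisons, in the order above.

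Depth limits the low groups: from E12.5 on, XX levels of Serpina5, Miox, Hcrtr1, Slc34a2, Jakmip2 and Etd rest on 0 to 6 counts per group, and ratios to them are bounds or carry wide intervals. With 3 libraries a group and sex tied to mouse line, differences between the sexes belong to these sorted libraries.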
